A study of Mus musculus with 36 samples.

Results

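The matrix proteases described here are Adamts1, Mmp2, Mmp9 and Cpz, 4 genes for enzymes that cells secrete into the space around them. They are measured by 5 probes, 2 of them for Mmp9, out of 9930 genes on 14030 probes that carry a single gene symbol in the array's annotation. The members are all probes whose symbol is one of these 4, and the 4 genes were picked with their differences from untreated cells in view. Those differences are therefore given as a description: where a count says that a probe passed the threshold of the fit over all probes, it stands beside the share of all probes that passed and is no independent evidence.

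Secreted metalloproteases cut collagens, proteoglycans and other parts of the extracellular matrix, and they also release or clip growth factors and cytokines held there. They are made as inactive precursors, are activated by other proteases, often at the cell surface, and are held in check by tissue inhibitors of metalloproteinases. Fibroblasts are a main source of them. Adamts1 is a metalloprotease with thrombospondin repeats that cleaves the proteoglycans aggrecan and versican. Mmp2 and Mmp9 are the gelatinases, which degrade denatured collagen and basement membrane collagen. Cpz is a zinc carboxypeptidase with a cysteine-rich domain like that of the Frizzled receptors, and it removes basic residues from the ends of proteins.

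NIH3T3 cells are a mouse fibroblast line, and here they carried an Erbb2 transgene under tet-off control, in which tetracycline shuts the transgene down. All 9 groups were such cells: untreated, or after 1, 2, 4, 12 or 24 h or 3, 5 or 7 d of tetracycline, with 4 dual-colour cDNA arrays per group and 36 in all. Per the labels, channel 1 held the RNA of the group, channel 2 held RNA of untreated Erbb2-transfected cells on every array, and replicates 3 and 4 had the dyes swapped. The comparisons ask how the genes differ from untreated cells at each time after tetracycline. The labels do not say whether replicates were separate cultures, so the spread between arrays may be technical. The design text speaks of different untreated lines as control, and the protocol texts mention organs and a pool of RNA from 6 animals, which goes against the named sources. Erbb2 itself is not among the named probes, so the shutdown of the transgene was not checked here.

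Each value is a log2 ratio, centred on its array's median, so 0 is the middle of the array and 1 is a doubling relative to it. Arrays 3 and 4 of each group were turned, that is, their sign was reversed, and a value above 0 then means more RNA of the group than of the reference. No source used here states which channel is the numerator, so this direction is assumed. Every sign below rests on it. Untreated replicates 1 and 2 held the same values apart from an offset of 0.771 (SD 0.0005 over 19840 values), so they count once and the untreated group has 3 arrays. Arrays carry no read depth, and their number limits the precision. The interquartile range of an array's values was 0.357 to 0.504 at 1 to 24 h, 0.492 to 0.700 in the untreated arrays and 0.697 to 1.42 at 3 to 7 d. On the 8 arrays of 5 and 7 d the deposited values were displaced against the probe rows and were moved back before use. A ratio gives a difference and no level, so the genes cannot be ordered by abundance, and a change in RNA per cell cannot be told apart from a change in which cells were present. Of the fibroblast markers Col1a1, Col1a2, Vim, Thy1, Pdgfra, Pdgfrb, Fap and S100a4, on 13 probes, 5 probes passed lower than untreated at 1 h, 4 at 2 h, 2 at 4 h and 0 at 12 and 24 h. At 3 d 1 of 13 passed higher, at 5 d 1 of 12 passed higher and 3 lower, and at 7 d 4 of 12 passed higher and 1 lower. Of all probes, 0.142% passed lower at 1 h, 0.119% at 2 h and 0.0591% at 4 h, and 0.38% passed higher at 3 d. At 5 d 1.21% passed higher and 0.974% lower, and at 7 d 0.575% passed higher and 0.491% lower. The part of these markers in the values below was not tested.

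The 250 bases before the transcription start are given for the 2 members whose promoter was found in RefSeq's mouse annotation (GRCm38.p6). They show what precedes the gene with the widest swing over the course, Adamts1, and a gene that stood apart at a single time, Cpz. Capitals mark 2 short core promoter motifs, the GC box GGGCGG bound by SP1 (on either strand) and the TATA box TATAAA. The Adamts1 sequence is chr16:85803114-85803363 on the minus strand and the Cpz sequence is chr5:35525627-35525876 on the minus strand, both 5′ to 3′.
Adamts1: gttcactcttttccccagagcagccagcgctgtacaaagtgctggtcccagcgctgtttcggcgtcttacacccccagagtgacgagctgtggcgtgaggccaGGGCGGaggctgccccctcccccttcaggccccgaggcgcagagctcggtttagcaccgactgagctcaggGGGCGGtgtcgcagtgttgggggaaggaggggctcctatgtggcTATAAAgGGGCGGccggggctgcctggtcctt
Cpz: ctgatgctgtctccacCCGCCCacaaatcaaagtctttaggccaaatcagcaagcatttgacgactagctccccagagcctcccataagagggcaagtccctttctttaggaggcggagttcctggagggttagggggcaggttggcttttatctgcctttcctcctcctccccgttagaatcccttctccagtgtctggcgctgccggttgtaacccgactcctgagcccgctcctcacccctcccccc
The Adamts1 window held 3 GC boxes, at 147 to 142, 76 to 71 and 25 to 20 bases before the start, and 1 TATA box at 32 to 27 bases. The Cpz window held 1 GC box, at 234 to 229 bases, and no TATAAA. Among all 32851 promoter windows of this length, 32.7% held GGGCGG and 12.4% held TATAAA on either strand. Motifs of 2 immediate early factors were also searched: TGANTCA, bound by AP-1 (in 6.75% of all windows), and GCGNGGGCG, bound by EGR1 (in 4.7%). Neither was in these 2 windows. The GC content was 65.6% for Adamts1 and 57.6% for Cpz. Such matches describe letters in the window and do not show a bound site.

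Adamts1 (probe 1758) was far below untreated in the first hours of tetracycline, closer to it at 12 and 24 h, and above it at 3 d. At 1 h the 4 arrays, in the order of replicates 1 to 4, stood at -2.14, -2.35, -1.95 and -1.92, against -0.43, 0.21 and 0.68 on the untreated arrays. At 2 h they stood at -1.74, -0.93, -1.82 and -1.87. At 4 h the values were -1.93, -1.69, -1.65 and -1.58. All 12 of these arrays lay below all 3 untreated arrays, in both dye orientations. At 1 and 4 h the Cy5 arrays (replicates 1 and 2) lay somewhat below the Cy3 arrays, and at 2 h replicate 2 stood above the others. The untreated arrays were split by dye as well, with -0.43 on the Cy5 array and 0.21 and 0.68 on the Cy3 arrays. The 12 h arrays gave -0.59, -0.91, -0.77 and -0.49, and the 24 h arrays gave -0.60, -0.82, -0.48 and -0.60. They too lay below every untreated array, but the highest 24 h array, at -0.48, was close to the lowest untreated one, at -0.43. By 3 d the arrays stood at 0.73, 0.98, 1.31 and 1.85. At 5 d they stood at 1.10, 1.00, 0.94 and 0.68, and at 7 d at 0.79, 0.86, 0.61 and 0.55. The 3 d and 5 d arrays lay above every untreated array, while the 7 d arrays overlapped the highest untreated one.

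**Figure D1:**
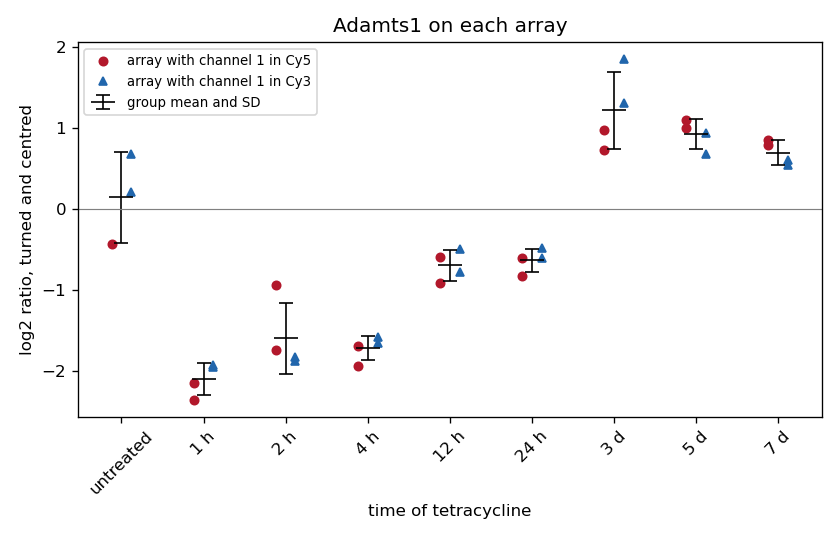
Adamts1 on each array: the y axis is the centred and turned log2 ratio, the x axis the time of tetracycline, circles and triangles the arrays with channel 1 in Cy5 and Cy3, and bars the group mean and SD. All arrays from 1 to 24 h lie below the 3 untreated arrays and those of 3 and 5 d lie above them.

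The group mean of Adamts1 went from 0.15 ± 0.56 (SD, n = 3) in untreated cells to -2.09 ± 0.20 (n = 4) at 1 h, a fitted difference of -2.22 (SE 0.24), or 4.65-fold lower on the linear scale. The difference was -1.72 at 2 h and -1.84 at 4 h, 3.29-fold and 3.59-fold lower. At 12 h it was -0.82 and at 24 h -0.76. It was 1.09 at 3 d, 2.12-fold higher, then 0.80 at 5 d and 0.57 at 7 d, each with the same SE of 0.24. The differences thus changed sign between 24 h and 3 d. The SE pools the spread over all groups and does not measure that of a single time: the SD was 0.14 at 24 h and 0.48 at 3 d. With the groups ordered by their means, 1 h came lowest and overlapped 4 h, 4 h overlapped 2 h, and 1 h and 2 h did not overlap. The 12 and 24 h groups overlapped each other and lay apart from the early times and from untreated, but narrowly. The highest 2 h array was at -0.93 and the lowest 12 h array at -0.91, and the highest 24 h array was at -0.48 and the lowest untreated one at -0.43. Untreated, 7 d, 5 d and 3 d followed with neighbours that overlapped.

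The linear model in limma, with a Benjamini-Hochberg adjusted threshold of 0.05 over all probes, passed Adamts1 at 4 of the 8 times: lower at 1, 2 and 4 h and higher at 3 d. Of all probes, 0.142% passed lower at 1 h, 0.119% at 2 h and 0.0591% at 4 h, and 0.38% passed higher at 3 d. Since these contrasts were in view when the genes were picked, the shares are printed as background alone. Counted from the lowest difference, Adamts1 was 14th of 18269 probes at 1 h, 20th of 18505 at 2 h and 15th of 18617 at 4 h. It was 360th of 18151 at 12 h and 440th of 18125 at 24 h, and, counted from the highest, 899th of 17085 at 3 d. The share of all probes with every array below all untreated arrays was 3.82% at 1 h, 3.87% at 2 h, 2.74% at 4 h, 2.89% at 12 h and 2.9% at 24 h, and 2.29% at 3 d and 4.72% at 5 d had every array above them.

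Within the course, the mean of 12 and 24 h exceeded the mean of 1, 2 and 4 h by 1.14 (SE 0.14), and the mean of 3, 5 and 7 d exceeded that of 12 and 24 h by 1.61 (SE 0.14). The early differences use the turned Cy3 arrays. With these not turned, replicates 1 and 2 had the opposite sign to replicates 3 and 4 at 1, 2 and 4 h. The fitted Adamts1 values were then 0.28 at 1 h, 0.69 at 2 h and 0.34 at 4 h, and none passed. Their SE was 1.07, against 0.24 with the arrays turned. Quantile normalization took the 2 and 4 h values to -2.67 and -2.94 and the 3 d value to 0.54, which no longer passed; the 3 d call was also lost with array weights (0.69), with values not centred (0.97) and without 3 d replicate 4 (0.88), untreated replicate 1 (0.81) or untreated replicate 3 (1.10).

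Among all probes, few others had a course of this shape. A criterion chosen after the values of Adamts1 were seen, every array at 1, 2 and 4 h below 0 and every array at 3, 5 and 7 d above 0, was met by 11 of 14436 probes (0.0762%), counting probes with at least 11 values in each part, and the mirrored course by 15 (0.104%). The 11 are Adamts1, 2 probes of Itm2b, 1 probe each of Lox, Dcn, Col1a2, Col6a1, Fbln5, Il6st and Mn1, and 1 unnamed probe. Lox cross-links collagen and elastin, Dcn is the collagen-binding proteoglycan decorin, Fbln5 is an elastic fibre protein, and Col1a2 and Col6a1 are collagen chains. The mean of 1, 2 and 4 h was -1.80 for Adamts1, -1.43 for Dcn, -1.19 for Lox and -1.09 for Col1a2. The mean of 3, 5 and 7 d was 0.95 for Adamts1, 1.05 for Dcn, 1.33 for Lox and 0.65 for Col1a2. Adamts1 was the lowest of the 11 in the early hours but not the highest at the late times.

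The probes most like Adamts1, by Spearman rho over the 35 arrays after the dye effect was taken off, were Itm2b (probe 19380, rho 0.94), Col1a2 (probe 19569, 0.92), Dcn (probe 18890, 0.91), Itm2b (probe 12747, 0.91) and Lox (probe 1602, 0.91). Across all 11024 probes compared, the median rho was 0.01. These probes share their arrays, so the coefficients are descriptions. Over the 23 untreated and 1 to 24 h arrays alone the coefficients were 0.89, 0.88, 0.88, 0.82 and 0.90 in the same order. Over the 12 arrays of 3 to 7 d they were 0.34, 0.24, -0.11, 0.39 and -0.36. The likeness therefore lay in the early arrays and in the step between early and late groups, and not in the order of the late arrays.

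**Figure D2:**
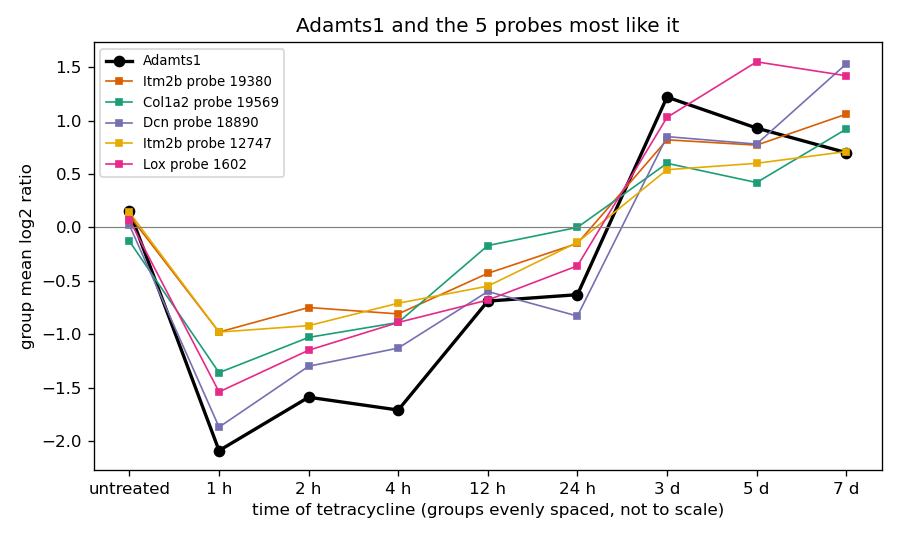
Group means of Adamts1 and of the 5 probes most like it: the y axis is the mean log2 ratio of a group and the x axis the groups in order of time, evenly spaced and not to scale. All 6 lines are lowest at 1 h and lie above 0 from 3 d on.

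Mmp2 (probe 4872, gelatinase A) had its clearest difference at 5 d. The untreated arrays stood at -0.03, -0.17 and -0.09, and the 5 d arrays at 1.05, 1.14, 0.86 and 1.11, all above them. At 3 d the arrays were 0.47, 0.85, 0.10 and -0.25, and at 7 d -0.49, 0.83, 0.26 and 0.94. Both of these groups spread to either side of the untreated arrays. In the first day the values were small: -0.57, -0.53, -0.60 and -0.52 at 1 h, all below untreated, and then between -0.25 and 0.08 at 2 and 4 h and between -0.45 and -0.05 at 12 and 24 h. The 1 h arrays were the least scattered group of this probe.

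The Mmp2 mean was -0.10 ± 0.07 (SD, n = 3) in untreated cells and 1.04 ± 0.12 (n = 4) at 5 d, a fitted difference of 1.12 (SE 0.24), 2.18-fold higher. This was the single time of 8 at which Mmp2 passed, beside 1.21% of all probes that passed higher at 5 d, and it was 790th of 17143 from the highest. The other differences were -0.47 at 1 h, -0.02 at 2 h, -0.06 at 4 h, -0.18 at 12 h, -0.21 at 24 h, 0.37 at 3 d and 0.47 at 7 d, and none passed. In the order of means 1 h came lowest and apart from 24 h, and every other neighbour overlapped. The mean of 3 to 7 d exceeded that of 12 and 24 h by 0.85 (SE 0.14), while 12 and 24 h differed from 1, 2 and 4 h by -0.01 (SE 0.14). At 5 d the value was -0.02 with the Cy3 arrays not turned, and it no longer passed with values not centred (0.90) or rows not moved (0.88). Leaving out single arrays of the 2 groups gave 1.08 to 1.17, and all 7 of these passed.

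Mmp2 and Adamts1 correlated over the 35 arrays with a rho of 0.62, over the 23 early and untreated arrays with 0.37 and over the 12 late arrays with -0.19. The probes most like Mmp2 were Rin2 (0.71), Lox (0.71), Med13l (0.67), Cst3 (0.66, over 34 arrays) and Rrbp1 (0.66). Lox, which also stood among the probes most like Adamts1, followed Mmp2 in the late arrays (0.72) more closely than in the early ones (0.45). Cst3 is cystatin C, a secreted inhibitor of cysteine proteases, and its rho was 0.29 early and 0.59 late.

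The 2 probes of Mmp9 (gelatinase B) did not give the same course. Probe 2214 stood at 0.05, 0.37 and 0.09 on the untreated arrays, and its treated group means ran from 0.04 to 0.39. The widest group was 7 d, with 1.10 and 0.56 on the Cy5 arrays and -0.24 and -0.24 on the Cy3 arrays. The treated arrays overlapped the untreated ones at every time, the differences ran from -0.17 at 3 d to 0.19 at 5 d (SE 0.22), and 0 of 8 passed. Probe 18813 stood at 0.37, -0.12 and -0.21 on the untreated arrays. From 1 h to 5 d its arrays ran from -0.60 to 0.53 and overlapped the untreated ones. At 7 d it was -1.09, -1.17 and -2.0 on replicates 2 to 4, with no value on replicate 1. These 3 arrays lay below every other array of this probe, and 3.88% of all probes had every 7 d array below all untreated arrays.

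The 7 d mean of probe 18813 was -1.42 ± 0.50 (SD, n = 3), a fitted difference of -1.43 (SE 0.25), 2.70-fold lower, and it passed, beside 0.491% of all probes that passed lower at 7 d. It was 184th of 16708 from the lowest. Over the 34 arrays with both probes, the Spearman rho of the Mmp9 probes was -0.05, with -0.30 over the 23 untreated and 1 to 24 h arrays and 0.36 over the 11 late ones. No direction for Mmp9 as a gene follows from probes that disagree.

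The 7 d value of probe 18813 depends on which row of the deposited table it is read from. The probe lies past the last of 4 points at which the late arrays' values slip by a further row, so its values were read 4 rows before its own. At its own row the 7 d arrays held -0.31, 0.02, -0.24 and -0.41, and at 3 rows before they held 0.62, 1.48, 0.69 and 0.56. With rows not moved the fitted difference was -0.26, and with the last slip point left out it was 0.80; neither passed. With the Cy3 arrays not turned it was 0.46, and with quantile normalization it was -1.10 and did not pass. The last slip point was placed at row 18385, within plausible bounds of 18372 to 18392. In slips simulated on the 8 arrays of 24 h and 3 d, 99.02% of all rows were placed right. That share does not measure how well this point was placed on the 7 d arrays. The other 4 probes lie before the first point, at row 6122, and of their values only those on 5 d replicate 1 were moved, by 1 row. Unmoved, that array would give -0.48 for Adamts1, 0.05 for Mmp2, -0.59 for Mmp9 probe 2214 and 1.34 for Cpz.

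**Figure D3:**
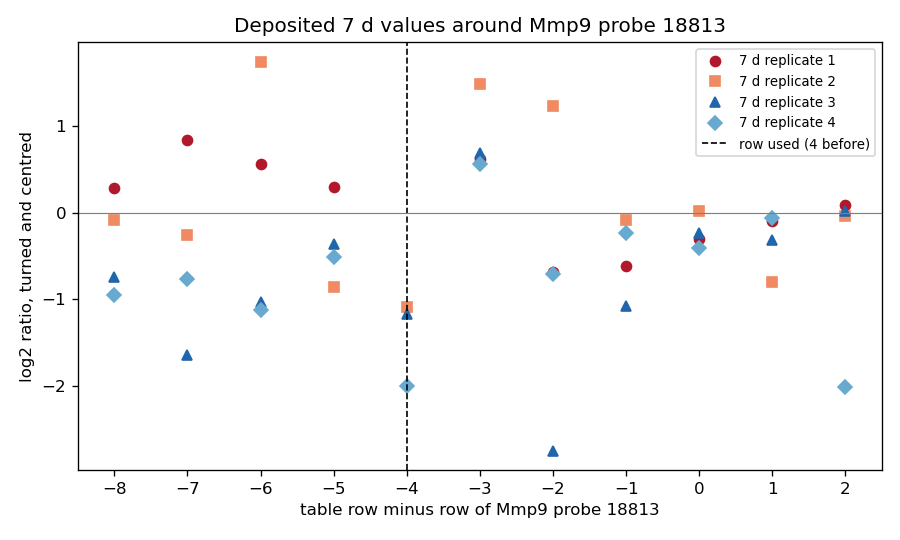
Deposited 7 d values in the table rows around Mmp9 probe 18813: the y axis is the centred and turned log2 ratio, the x axis the table row relative to the probe's own row, symbols the 4 arrays, and the dashed line the row used. At the dashed line the 3 arrays with a value lie between -2.0 and -1.09, 1 row later all 4 lie above 0, and at the probe's own row they lie between -0.41 and 0.02.

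Cpz (probe 5201) stood apart from untreated at 4 h alone. The untreated arrays were -0.23, 0.35 and 0.38, and the 4 h arrays -2.13, -0.77 and -0.66 on replicates 2 to 4, with no value on replicate 1. All 3 lay below the untreated arrays, and replicate 2 was far below the other two. At all other times the arrays lay between -0.48 and 0.55 and overlapped the untreated ones. The 4 h mean was -1.18 ± 0.82 (SD, n = 3) against 0.16 ± 0.34 (n = 3), a fitted difference of -1.35 (SE 0.30), 2.54-fold lower, and 43rd of 18617 from the lowest. It did not pass. It passed under 7 alternatives, among them quantile normalization (-2.07) and values not centred (-1.55), and without untreated replicate 1 (-1.61), while without 4 h replicate 2 the value was -0.79. The differences at the other times ran from -0.36 at 3 d to -0.06 at 5 d, and none passed. The probe most like Cpz was Wdr33 (rho 0.69), followed by Pdrg1 (0.63). Their 4 h means were -0.05 and -0.16, so they did not share the low 4 h value of Cpz.

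**Figure D4:**
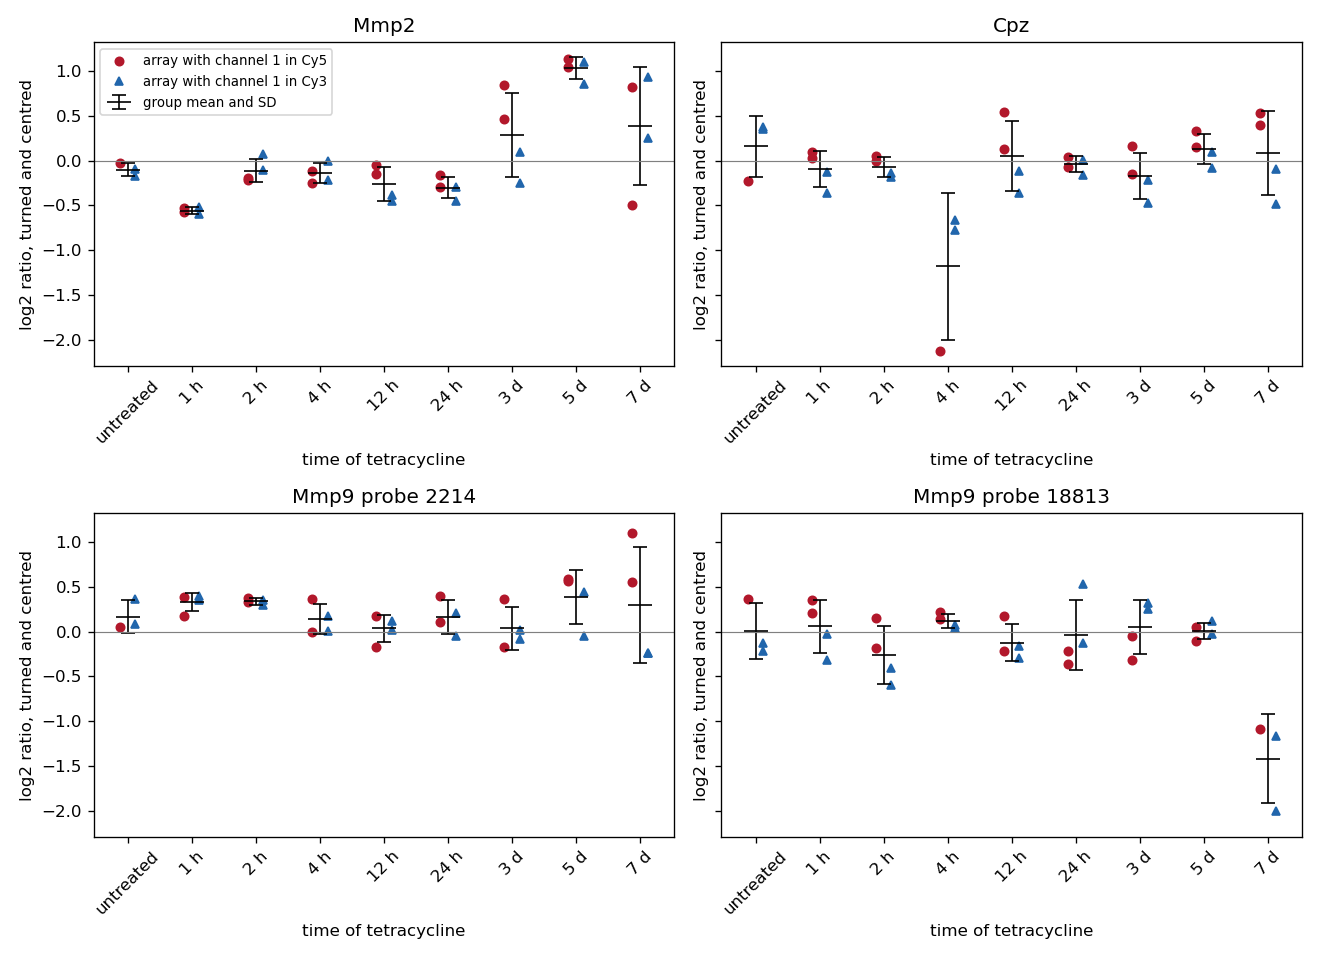
Mmp2, Cpz and the 2 Mmp9 probes on each array: the y axes are centred and turned log2 ratios, the x axes the time of tetracycline, circles and triangles the arrays with channel 1 in Cy5 and Cy3, and bars the group mean and SD. Mmp2 stands above untreated at 5 d, Cpz below it at 4 h and Mmp9 probe 18813 below it at 7 d.

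Over the 5 probes and 8 times, 6 of 40 probe-time pairs passed, 4 of them Adamts1, 1 Mmp2 and 1 Mmp9 probe 18813. No time had more than 1 of the 5 probes past the threshold, and at 12 and 24 h none passed, where 0.0165% and 0.0276% of all probes passed. The 4 genes thus had no call in common at any time, and the lower calls at 1, 2 and 4 h were those of Adamts1. Mmp2 at 1 h (-0.47) and Cpz at 4 h (-1.35) also lay below every untreated array, but did not pass. Of all probes, 3.82% and 2.74% lay so at these times. At 5 d both Adamts1 and Mmp2 lay above every untreated array, beside 4.72% of all probes. Mmp2, Cpz and Mmp9 probe 18813 each had their widest difference at a time of their own. Fits of only the arrays of the 2 groups compared passed 0 of the 40 pairs, and those with the Cy3 arrays not turned also 0. The share of all probes that passed in these fits is not given here, so neither 0 has a background. In the fit of 2 groups Adamts1 at 1 h was -2.15 (SE 0.21) and did not pass, against -2.22 (SE 0.24) in the main fit.

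**Figure D5:**
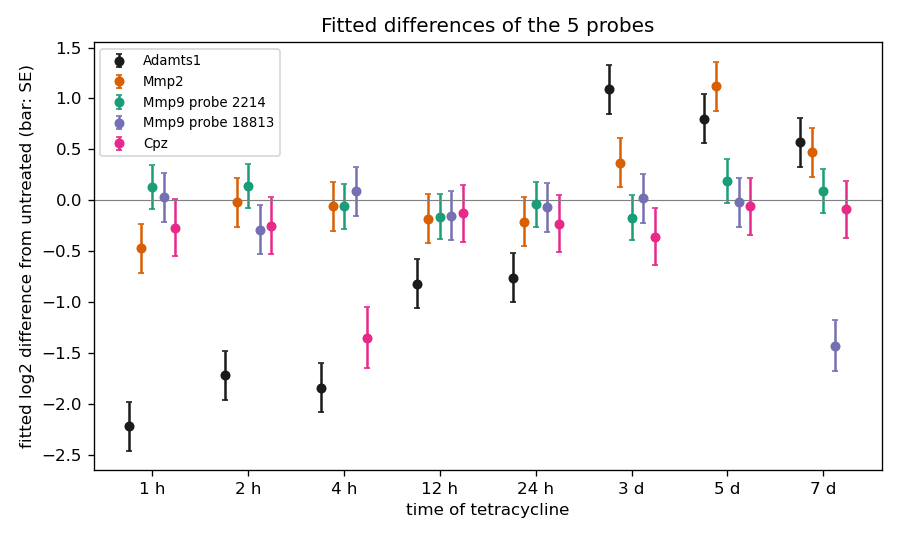
Fitted log2 difference of each of the 5 probes from untreated (y axis, bars: SE) at each time of tetracycline (x axis). Adamts1 runs from -2.22 at 1 h to 1.09 at 3 d, and the other probes stay within 0.5 of 0 except Cpz at 4 h (-1.35), Mmp2 at 5 d (1.12) and Mmp9 probe 18813 at 7 d (-1.43).

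The other proteases, activators, inhibitors and substrates of the same pathway were taken from a list of 87 genes, of which 47 were on the array with 67 probes. At 1 to 24 h 0 of 305 probe-time pairs passed in limma (19 at an unadjusted p under 0.05), where 0.194% of all pairs passed. At 3 to 7 d 1 of 171 passed (28 at an unadjusted p under 0.05), where 1.33% of all pairs passed. Both shares of all pairs are at the adjusted threshold. No share of all pairs at an unadjusted p under 0.05 is given here, so the 19 and 28 have no background. The pair that passed was Htra1, a secreted serine protease that degrades matrix proteins, at 3 d. It stood at 0.16 ± 0.35 (SD, n = 4) against -0.90 ± 0.82 (n = 3) untreated, a fitted difference of 1.05 (SE 0.24, limma adjusted p = 0.0291). Its treated group means ran from -0.26 at 5 d to 0.16 at 3 d, and the untreated mean lay furthest from 0. Per the labels, both channels of the untreated arrays held RNA of untreated cells. The Htra1 difference at 3 d thus lay mostly in the distance of the untreated arrays from 0. Why they lay there was not tested. The untreated arrays of Htra1 ran from -1.70 to -0.05 and its 3 d arrays from -0.35 to 0.45, so the groups overlapped. At the other 7 times its difference was 0.63 to 0.92 and did not pass, and without untreated replicate 1 it passed at all 8 (1.10 to 1.52). Without 3 d replicate 4 the difference was 0.94, without untreated replicate 3 1.03 and without untreated replicate 4 0.66, and it no longer passed. With the Cy3 arrays not turned it passed in the other direction (-1.09).

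By class, 0 of the probes with enough values to be tested passed at any time, except for Htra1 in the plasminogen class. Depending on the time, 7 to 10 of 11 probes of other matrix metalloproteinases, 9 to 10 of 11 of ADAMTS and related proteases and 8 of 9 of carboxypeptidases and relatives were tested. Of the inhibitors 10 to 12 of 13 probes, of the activators 7 to 10 of 10 and of the proteoglycan and basement membrane substrates 5 of 6 were tested. The median difference over the list was -0.05 at 1 h, 0.05 at 4 h, 0.10 at 24 h and 0.08 at 3 d, against 0 at 1 and 4 h, -0.02 at 24 h and -0.01 at 3 d over all probes. The inhibitors had medians of 0.17 at 3 d, 0.38 at 5 d and 0.27 at 7 d, against -0.01, 0 and -0.01 over all probes. They were not the highest class at 7 d, where the activators had 0.34 and ADAMTS and related proteases 0.31. At that time the matrix metalloproteinases had -0.01 and the substrates -0.14.

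Timp2, an inhibitor of metalloproteinases that also takes part in activating pro-Mmp2, passed limma's F-test over all 8 differences on probe 16306 (adjusted p = 0.00589), the single one of 52 list probes tested to do so, beside 5.94% of all probes. Its untreated arrays ran from -0.27 to -0.18 and its 3 d arrays from 0.26 to 1.22, without overlap. The difference was 1.00 at 3 d (SE 0.28, limma adjusted p = 0.0953), 0.63 at 5 d and 0.78 at 7 d, and no single time passed. Its other probe, 18062, had too few values to be tested. Mmp14, the membrane-bound activator of Mmp2, had differences of -0.42 and -0.21 at 1 h and 0.36 and 0.17 at 3 d on its 2 probes. Timp1 probe 1493 had differences from -0.12 at 3 d to 0.32 at 4 h, while its probe 20342 had 0.62 at 1 h, 0.80 at 7 d and, from 2 values and untested, 2.21 at 3 d. The 4 probes of Timp3 did not agree at 7 d: probe 447 had 0.61 (SE 0.18, limma adjusted p = 0.103), probe 453 0.78, probe 515 0.55 and probe 503 -0.51. Plau, which encodes the urokinase plasminogen activator, had a difference of 0.57 at 3 d (SE 0.37, limma adjusted p = 0.534). None of these passed at any time.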

How the data were processed

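Total RNA was measured on 36 dual-colour cDNA arrays. The authors deposited log2 ratios of both channels, as the file headers and values show; software, background correction and normalization are not given in the sources used here. Each array held 20355 rows with 17508 to 20010 values. Over all arrays the 2807 values above 12 were set to missing, and the median of each array was then subtracted. The Cy3 arrays were multiplied by -1. Untreated replicates 1 and 2 were averaged. On the 5 and 7 d arrays rows were moved back at 4 points and 810 rows around them were left out.

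Differences were fitted with limma 3.58.1 in R 4.3.3, with all 9 groups and a common dye effect in 1 fit, on probes with at least 3 values in both groups, and adjusted by Benjamini-Hochberg over all such probes. On simulated data made for 1 h (18269 probes), 25% of changes of 1 and 72% of changes of 2 log2 units were recovered, with 5 false calls. Of the probes, 14030 carry 1 gene symbol, 5 several and 6320 none; 13994 of their gene IDs matched RefSeq. Patterns were compared with pandas 2.3.3 and scipy 1.17.1. Genes named were the 4 members, the list genes that passed, Timp1, Timp2, Timp3, Mmp14 and Plau, and the 5 probes most like a member over at least 32 arrays. The fibroblast markers are a list, and Col6a1, Fbln5, Il6st and Mn1 were named after their values were seen, as probes meeting the course criterion. Epithelial, macrophage and endothelial markers were examined as changes only: 0 probes passed at 1 to 24 h and at 3 d, and 1 endothelial probe passed lower at 5 d and at 7 d. Replicate numbers did not mark shared deviations (median correlation -0.044 to -0.055). Members and lists were chosen with earlier results of these data known. Alternatives are in the closing section.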

Additional observations from a re-analysis of the deposited data

Results flagged for a closer look

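On 2 h replicate 2, Adamts1 stood at -0.93, the highest of the 4 arrays of that time and far from the others by Dixon's criterion. Of the 38 groups of 4 arrays examined, about 1 in 20 would be singled out by chance.

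The treated arrays of Adamts1 lay all on one side of the untreated arrays at some times and all on the other side at others. They were below at 1 h (difference -2.22), 2 h (-1.72), 4 h (-1.84), 12 h (-0.82) and 24 h (-0.76), and above at 3 d (1.09) and 5 d (0.80). Mmp2 lay below at 1 h (-0.47) and above at 5 d (1.12). These differences between times share the same 3 untreated arrays and were not tested.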

How the results depend on the processing

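With the Cy3 arrays not turned, Adamts1 was 0.28 at 1 h, 0.69 at 2 h and 0.34 at 4 h, Mmp2 -0.02 at 5 d, Mmp9 probe 18813 0.46 at 7 d and Htra1 -1.09 at 3 d; with the last slip point left out (chosen after seeing the data) Mmp9 probe 18813 was 0.80 at 7 d. Of the 6 member pairs that passed, 6 also passed with no dye effect, with values above the ceiling kept, with a dye effect for each group and against 0. Values not centred kept 4 (the median of all probes then moved by up to -0.27), quantile normalization 4 and array weights 5, and fits of only the arrays of the 2 groups compared 0. The shares of all probes that passed under these settings are not given here. Calls were gained too. At 5 d Adamts1 passed with a dye effect for each group, with separate untreated arrays and against 0. At 7 d it passed against 0, and at 12 and 24 h with array weights. Mmp2 passed at 1 h with the untreated and 1 to 24 h arrays alone (-0.47). Adamts1 passed lower at 12 and 24 h without untreated replicate 1 (-1.10 and -1.04) and higher at 5 d without untreated replicate 4 (1.04). Without untreated replicate 1 its 5 d value was 0.52 and its 7 d value 0.29, and without untreated replicate 4 its 24 h value was -0.52; none of these passed. Mmp2 passed at 7 d without 7 d replicate 1 (0.77). Mmp9 probe 18813 could not be tested at 7 d without replicate 2, 3 or 4, where fewer than 3 values are left.

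The list's count at 1 to 24 h (0) was 2 with Cy3 arrays not turned, with quantile normalization and against 0, 1 with a dye effect for each group and with untreated replicates 1 and 2 as separate arrays, 13 with array weights and 5 with the untreated and 1 to 24 h arrays alone. Its count at 3 to 7 d (1) was 11 not turned, 0 with quantile normalization, with the arrays of the 2 groups alone and with rows not moved, 2 with a dye effect for each group, 6 with array weights and 13 against 0. Its F-test count (1) was 0 not centred, 4 with quantile normalization, with the ceiling kept and with separate untreated arrays, 5 with a dye effect for each group and 7 with array weights. Leaving out single arrays gave 0 to 5, 0 to 6 and 1 to 6; the highest counts were 5 and 6 without untreated replicate 1 and 6 without 3 d replicate 4. The cause was not tested. No share of all probes called is given for any of these settings, so the list's counts cannot be set against a background. With the replicate number as a block in place of the dye effect, the list's count at 3 to 7 d was 2, and all 6 member pairs passed. The numbers do not pair the arrays: same-numbered deviations correlated between -0.196 and 0.142. With 3 untreated and 4 treated arrays, a difference of 1 was often missed in simulated data.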

Other observations

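Mmp9 probe 2214 had no time at which it passed, and the probes most like it over the 35 arrays were Macrod1, Srek1ip1, Tmem19 and Haus4 (rho 0.69 each) and Iqcg (0.68). The probes most like Cpz after Wdr33 and Pdrg1 were Pcnp, Aldoc and Spsb1 (0.59 each). Their 4 h means were -0.37, -0.38 and -0.05, against -1.18 for Cpz.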
